A study of Homo sapiens with 11 samples.

Results

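The expression of 10 genes of the NF-kB pathway was followed in prostate cancer cells that overexpress the sialyltransferase ST6GAL1. They are the subunit genes NFKB1, NFKB2, RELA and RELB, and the IkB protein genes NFKBIA and NFKBIZ. The others are the ubiquitin enzyme genes TNFAIP3 and BIRC3, the adhesion gene ICAM1 and the kinase gene IRAK2. The members were given as this list of symbols, chosen with earlier results of these data known, and each was found by its Entrez identifier, so that 10 of the 28395 genes of the series are described. PC3 and DU145 are established cell lines from human prostate cancer metastases, and in each of them the study compared cells transduced with an open reading frame lentivirus for ST6GAL1 with cells transduced with a negative control lentivirus (Lenti-ORF control). The libraries analysed here are 3 of PC3 control, 3 of PC3 overexpression, 3 of DU145 control and 2 of DU145 overexpression cells, the last numbered replicates 2 and 3. The labels call the libraries biological repeats, and the number of separate transductions and the promoter of the vector are not given in the sources used here. Effects of ST6GAL1 and of a particular transduced population therefore cannot be told apart, and p-values measure the spread between these libraries.

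NF-kB is a family of dimeric transcription factors that are held in the cytoplasm by IkB proteins. Signals from tumour necrosis factor, interleukin and Toll-like receptors activate the IkB kinase complex, which marks IkB proteins for degradation and frees the dimers to enter the nucleus. Their targets include genes for their own inhibitors, among them NFKBIA and TNFAIP3, so that a response limits itself. PC3 and DU145 are both commonly described as androgen-independent lines with NF-kB activity in culture. RNA levels, which are what was measured here, do not report the amount of nuclear NF-kB protein.

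To describe the promoters of the members, the 250 bases before each annotated start were searched for the NF-kB consensus. This motif has 10 letters, and both strands were searched. The windows come from RefSeq on GRCh38.p14, where 9 of the 10 members were matched, all but RELB. At least 1 match stood in the windows of 6 of these 9 members (66.7%), namely NFKB1, NFKB2, NFKBIA, NFKBIZ, TNFAIP3 and BIRC3, and no match stood in those of RELA, ICAM1 and IRAK2. Counted over genes, 1715 of 27305 genes with a window (6.28%) held a match, and among genes tested for the difference between the lines it was 938 of 11676 (8.03%). Counted over windows, 8 of the 14 windows of members and 1828 of all 35116 windows (5.21%) held one. A match is a description of letters and not of a bound site. The members were listed as NF-kB subunits, inhibitors and direct feedback targets. A higher share than among all genes was thus favoured by the choice and is no test. A window is shown for NFKB2, NFKBIA, TNFAIP3 and BIRC3, whose changes with overexpression passed the test of a difference between the lines. Another is shown for NFKBIZ, which had the largest difference in level between the control groups. Only windows with a match are shown, so that they do not tie matches to changes. ICAM1, whose level also differed, had no match, and the first window of NFKB2 held none. Windows are read 5′ to 3′ on the strand of the gene, with the consensus matches in capitals.
NFKB2, chr10:102394328-102394577, + strand: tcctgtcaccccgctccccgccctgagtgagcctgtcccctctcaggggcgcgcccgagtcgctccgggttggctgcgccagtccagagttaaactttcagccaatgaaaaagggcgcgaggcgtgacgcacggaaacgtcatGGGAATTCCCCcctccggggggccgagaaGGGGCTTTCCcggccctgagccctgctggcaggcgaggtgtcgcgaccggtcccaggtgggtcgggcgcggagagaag
NFKBIA, chr14:35404750-35404999, - strand: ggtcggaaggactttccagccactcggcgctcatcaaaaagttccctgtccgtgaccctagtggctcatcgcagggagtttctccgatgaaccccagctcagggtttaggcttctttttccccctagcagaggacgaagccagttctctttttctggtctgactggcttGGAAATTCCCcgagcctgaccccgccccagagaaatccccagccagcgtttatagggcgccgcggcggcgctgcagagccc
NFKBIZ, chr3:101827740-101827989, + strand: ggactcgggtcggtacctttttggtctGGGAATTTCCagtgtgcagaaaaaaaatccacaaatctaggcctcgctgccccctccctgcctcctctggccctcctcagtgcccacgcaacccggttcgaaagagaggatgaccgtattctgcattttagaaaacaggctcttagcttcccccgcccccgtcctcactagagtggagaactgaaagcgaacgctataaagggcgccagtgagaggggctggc
TNFAIP3, chr6:137867009-137867258, + strand: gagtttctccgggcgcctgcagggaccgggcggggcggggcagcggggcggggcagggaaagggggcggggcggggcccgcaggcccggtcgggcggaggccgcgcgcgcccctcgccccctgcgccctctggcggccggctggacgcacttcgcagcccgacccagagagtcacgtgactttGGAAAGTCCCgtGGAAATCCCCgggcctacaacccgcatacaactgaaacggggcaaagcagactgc
BIRC3, chr11:102317234-102317483, + strand: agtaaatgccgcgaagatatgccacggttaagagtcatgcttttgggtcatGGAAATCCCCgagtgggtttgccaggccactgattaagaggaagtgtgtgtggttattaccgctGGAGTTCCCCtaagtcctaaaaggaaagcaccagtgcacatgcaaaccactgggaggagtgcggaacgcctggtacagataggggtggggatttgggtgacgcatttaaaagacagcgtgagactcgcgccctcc
In TNFAIP3, matches began 67 and 55 bases before the start, and in BIRC3 199 and 135 bases before it, all on the opposite strand. NFKBIA had 1 match on the opposite strand, 81 bases before the start, and the shown window of NFKBIZ had 1 match 223 bases before it. In the shown window of NFKB2, matches began 107 and 106 bases before the start on overlapping letters, with that at 107 read on both strands, and a further match began at 78. The windows of NFKB2 and TNFAIP3 lie inside the genes as annotated, upstream of a later start of each. NFKB1, whose window is not shown, had a match 49 bases before its start with the same letters as that of NFKBIZ.

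**Figure D1:**
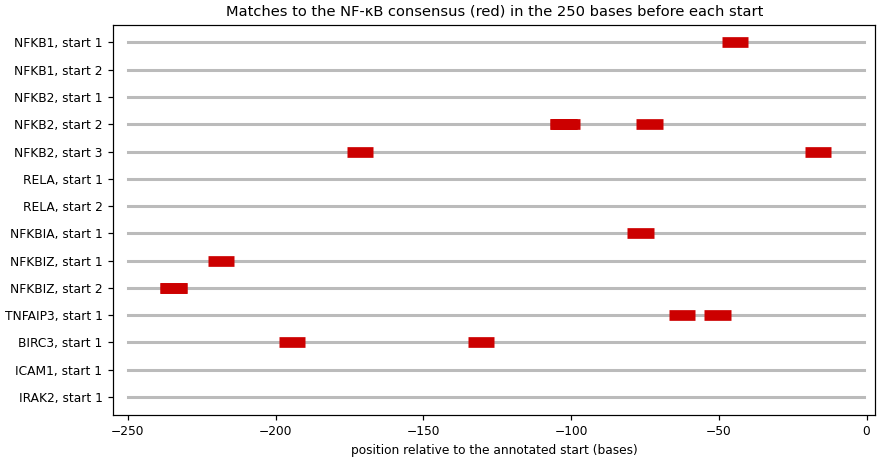
Each grey line is 1 window of 250 bases before an annotated start, with position relative to the start in bases on the x axis and 1 row for each window of a member, and red blocks mark matches to the NF-kB consensus. Blocks stand in 8 of the 14 windows, and those of TNFAIP3, NFKBIA and NFKB1 lie within 81 bases of the start.

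Counts on genes totalled between 13194485 and 18201359 in the 11 libraries, and the floor of 3 counts lies at 0.165 to 0.227 CPM, counts scaled to the library total, for counting error only. ST6GAL1 rose in both lines, with log2 fold changes of 3.58 in PC3 (standard error, SE, 0.102, adjusted p = 1.37e-28) and 4.65 in DU145 (SE 0.104, adjusted p = 1.48e-11, both by the quasi-likelihood test of edgeR). Epithelial keratin and adhesion markers (KRT8, KRT18, EPCAM and CDH1) were read in every library. They summed to 496 to 531 CPM in PC3 and 881 to 1091 CPM in DU145. These sums come mainly from KRT8 and KRT18 and hide changes of single genes. With overexpression in PC3, CDH1 was higher, at 23.0 to 24.3 CPM against 8.85 to 9.65 in controls (log2 fold change 1.37, adjusted p = 7.85e-18, same test). KRT8 was lower there (-0.21, adjusted p = 3.93e-08). The luminal prostate genes KLK3 and KLK2 had no counts in any library. The T and B cell markers CD3E and MS4A1 had no counts in any library, and the 4 blood and immune markers summed to at most 2.68 CPM. Markers of other classes were read. The 2 endothelial markers summed to 5.63 to 7.05 CPM in PC3 and 0.198 to 1.45 CPM in DU145. The 3 fibroblast markers summed to 18.3 to 27.1 CPM in PC3 and 3.80 to 7.33 CPM in DU145, mostly from COL1A1 (18.1 to 26.9 CPM in PC3). The DU145 overexpression libraries stood apart from the other replicate pairs, with a chi-square of 13.4 per gene between them, against 2.71 to 5.47 between DU145 controls and 1.37 to 2.47 between PC3 replicates.

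Levels of the members were first compared between genes on a per length scale, as normalised CPM per kilobase of the canonical transcript. In PC3 control cells RELA, a transactivating subunit, had the highest mean level of the 10, at 58.5 ± 1.27 CPM per kilobase (SD, n = 3). NFKB2 at 29.0 ± 0.725 and NFKBIA at 28.9 ± 1.99 followed and overlapped each other, and TNFAIP3 had the lowest level, at 3.20 ± 0.402. Between these lay, in falling order, NFKBIZ, ICAM1, NFKB1, RELB, IRAK2 and BIRC3, of which only IRAK2 and BIRC3 overlapped. In DU145 control cells ICAM1 stood first at 51.9 ± 2.24 CPM per kilobase (SD, n = 3), and NFKBIA at 43.3 ± 1.77 and RELA at 42.8 ± 2.24 overlapped each other. NFKB2 and NFKB1 came next and overlapped, then IRAK2, RELB and BIRC3, each overlapping the next, and TNFAIP3 (1.46 ± 0.103) and NFKBIZ (1.24 ± 0.0906) were lowest.

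**Figure D2:**
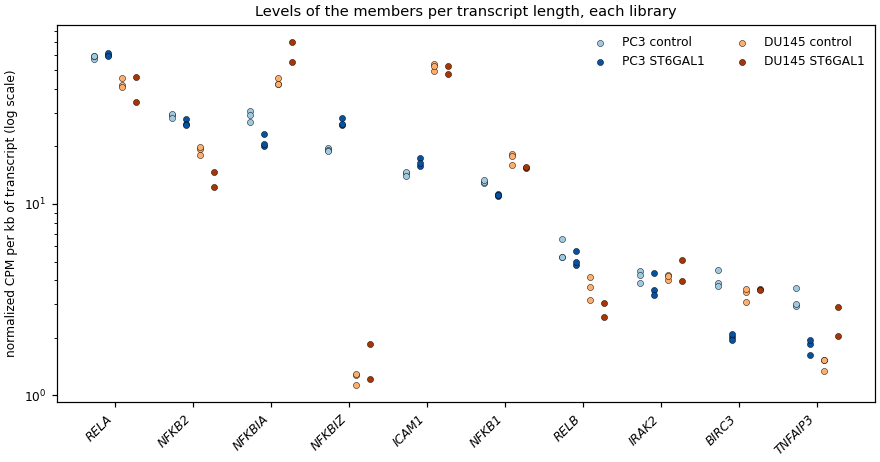
Each point is 1 library, with normalised CPM per kilobase of transcript on a logarithmic y axis and the 10 members on the x axis, ordered by their mean in PC3 control cells. RELA lies highest in PC3 and ICAM1 in DU145 control cells, and NFKBIZ shows the widest gap between the lines.

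The control libraries of the lines differed from each other, without ST6GAL1 overexpression. Line and any run or batch cannot be told apart in this comparison. Comparing control libraries, NFKBIZ, an atypical nuclear IkB protein that acts as a cofactor at some NF-kB targets, was read at 76.7, 74.8 and 74.3 normalised CPM in PC3 and at 5.02, 4.44 and 5.09 in DU145. All DU145 values lay far below all PC3 values, a log2 difference of -3.95 for DU145 against PC3 (SE 0.0821, adjusted p = 1.46e-25 by the quasi-likelihood test of edgeR), or a 15.5-fold lower level. ICAM1, a surface receptor for leukocyte integrins, was read at 43.1, 43.5 and 41.7 normalised CPM in PC3 and at 159, 147 and 157 in DU145. It was higher in every DU145 control library, with a log2 difference of 1.85 (SE 0.0531, adjusted p = 2.46e-22).

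Of the 10 members, 2 were called higher in DU145 controls (ICAM1 and NFKBIA) and 4 lower (NFKBIZ, TNFAIP3, RELB and NFKB2) with the adjusted p below 0.05 and a log2 difference of more than 0.58 in size. Of all 14246 genes tested, 31.8% were called higher and 32.8% lower. The members' counts were thus near what all genes gave. TNFAIP3 differed by -1.12 on the log2 scale, RELB by -0.63, NFKB2 by -0.59 and NFKBIA by 0.59 (DU145 against PC3). The calls of the last 3 lay close to the threshold. RELB dropped below it without PC3 control replicate 2 (-0.53) or DU145 control replicate 1 (-0.53), NFKB2 without DU145 control replicate 1 (-0.55), and NFKBIA without PC3 control replicate 1 (0.53) or DU145 control replicate 2 (0.56). Control groups did not overlap for 9 of the 10 members, where 88.5% of all genes did not. IRAK2, an adaptor kinase of interleukin and Toll-like receptors, was the exception, with 13.3 to 15.2 normalised CPM in PC3 and 13.7 to 14.6 in DU145.

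To ask how ST6GAL1 overexpression changed the members in each line, overexpression libraries were compared with controls of the same line. In PC3 cells the ubiquitin enzyme genes TNFAIP3 and BIRC3 fell past both thresholds, NFKBIA, NFKB1 and NFKB2 were lower by smaller steps, and NFKBIZ and ICAM1 were higher by smaller steps. In DU145 cells TNFAIP3 rose, NFKBIA was higher and NFKB2 was lower. These control libraries are the same as in the comparison of the lines. In cultures measured in bulk, fewer cells expressing a gene and less RNA per cell cannot be told apart.

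BIRC3 (GRCh38, chromosome 11 from 102317484 to 102339403) encodes an inhibitor of apoptosis protein with ubiquitin ligase activity that acts at tumour necrosis factor receptors. It was read at 26.4, 31.2 and 25.6 normalised CPM in PC3 control libraries (counts of 472, 493 and 392) and at 13.9, 13.4 and 14.3 in PC3 overexpression libraries (205, 243 and 227). Every overexpression library lay well below every control library. The log2 fold change was -0.996 (SE 0.0773, adjusted p = 5.78e-14 by the quasi-likelihood test of edgeR). In DU145 the controls had 23.9, 21.1 and 24.8 normalised CPM and the overexpression libraries 24.8 and 24.5. The DU145 groups overlapped, with a log2 fold change of 0.09 (SE 0.109, adjusted p = 0.605). The control groups of the lines differed by 1.19-fold, and of the 4 groups PC3 overexpression cells had the lowest values, without overlap with any other.

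TNFAIP3 (chromosome 6 from 137866349 to 137883312) encodes a ubiquitin-editing enzyme that restrains signalling to the IkB kinase complex. In PC3 it was read at 13.7, 17.1 and 14.0 normalised CPM in controls (counts of 244, 270 and 215) and at 7.62, 8.66 and 9.03 with overexpression (112, 157 and 143). The groups did not overlap, and the log2 fold change was -0.81 (SE 0.0985, adjusted p = 8.22e-09 by the quasi-likelihood test of edgeR). In DU145 it was read at 6.28, 7.11 and 7.11 normalised CPM in controls (counts of 95, 112 and 95) and at 9.48 and 13.6 with overexpression (147 and 243). Both overexpression libraries lay above all controls but apart from each other, and the log2 fold change was 0.77 (SE 0.167, adjusted p = 0.00495). This call rests on few libraries. It was lost without DU145 control replicate 1 (0.69, adjusted p = 0.0561), without control replicate 2 (0.78, adjusted p = 0.0643) and, on size, without overexpression replicate 3 (0.48, adjusted p = 0.0316). WAKMAR2, which overlaps TNFAIP3, had 40 counts in all 11 libraries together against 1833 for TNFAIP3.

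**Figure D3:**
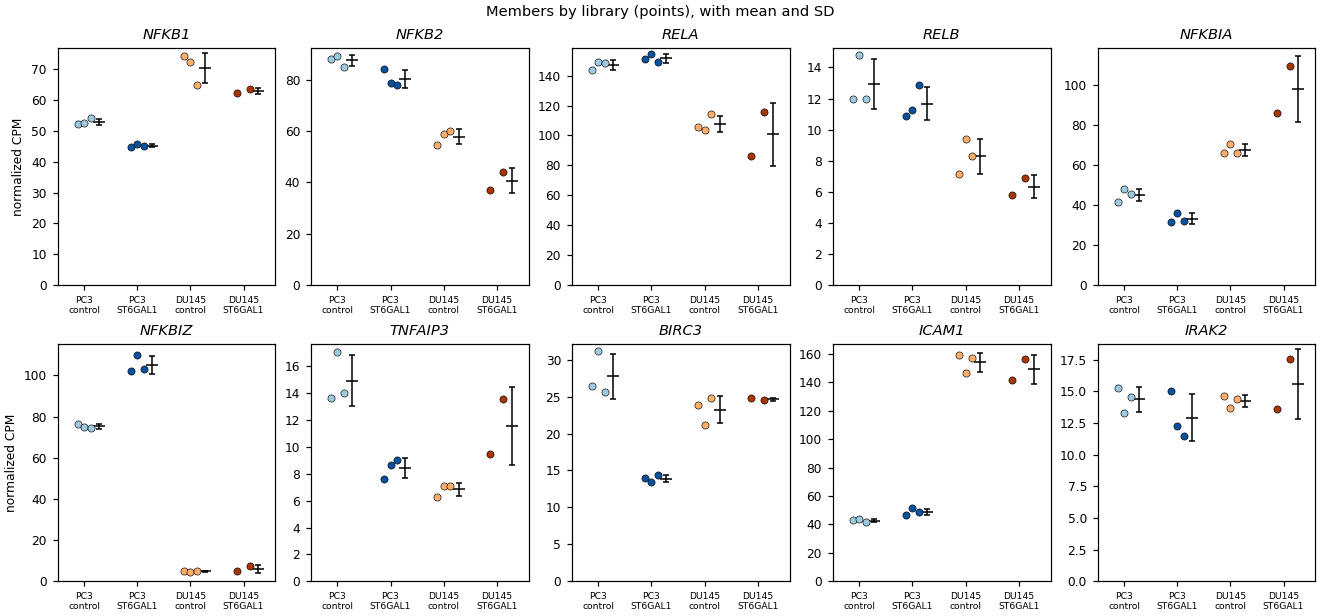
Each panel is 1 member, with normalised CPM on a linear y axis from 0, points for single libraries of the 4 groups and bars for mean and SD. BIRC3 is lower in PC3 overexpression libraries (13.4 to 14.3) than in all others (21.1 to 31.2), and TNFAIP3 and NFKBIA are lower with overexpression in PC3 and higher with it in DU145.

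NFKBIA (chromosome 14 from 35401513 to 35404749) encodes the classical IkB protein that retains RELA dimers in the cytoplasm. It was read at 41.7, 47.9 and 45.5 normalised CPM in PC3 controls and at 31.4, 36.2 and 32.0 in PC3 overexpression libraries. In DU145 it was read at 65.8, 70.7 and 66.1 in controls and at 86.2 and 109.6 with overexpression. The groups of neither line overlapped, and the order of the groups was opposite in the lines. The log2 fold change was -0.43 in PC3 (SE 0.0584, adjusted p = 1.12e-07) and 0.54 in DU145 (SE 0.0979, adjusted p = 0.00177, both by the quasi-likelihood test of edgeR), below the size threshold in both. Without DU145 overexpression replicate 2 it reached 0.69, which passed that threshold, and without replicate 3 it was 0.36.

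NFKBIZ (chromosome 3 from 101827990 to 101861022) was read in PC3 at 76.7, 74.8 and 74.3 normalised CPM in controls and at 102, 109.8 and 103 with overexpression. All 3 overexpression libraries exceeded all controls, with a log2 fold change of 0.48 (SE 0.0385, adjusted p = 1.34e-13). In DU145, at the far lower level given above, the overexpression libraries differed from each other at 4.77 and 7.31 normalised CPM, and the controls spanned 4.44 to 5.09. The fitted log2 fold change of 0.33 (SE 0.195, adjusted p = 0.26) was -0.0089 without overexpression replicate 3 and 0.59 without replicate 2. NXPE3 overlaps NFKBIZ in the annotation, and strand use in counting is not given in the sources used here. NXPE3 had 9516 counts in all libraries, close to the 9231 of NFKBIZ, and its log2 fold change in PC3 was -0.26, opposite in sign to that of NFKBIZ.

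Among the subunit genes, NFKB1 and NFKB2, which encode the precursors of DNA-binding subunits, were lower in PC3 overexpression cells. NFKB1 was read at 52.4, 52.6 and 54.1 normalised CPM in PC3 controls and at 44.8, 45.7 and 44.95 with overexpression, without overlap. Its log2 fold change was -0.23 (SE 0.0468, adjusted p = 0.000126), and in DU145, where controls of 65.1 to 74.3 and overexpression libraries of 62.3 and 63.5 also did not overlap, it was -0.16 (SE 0.0855, adjusted p = 0.215). NFKB2 (chromosome 10 from 102394110 to 102402529) was read at 88.0, 89.3 and 85.0 normalised CPM in PC3 controls and at 84.1, 78.8 and 77.8 with overexpression, a log2 fold change of -0.13 (SE 0.0395, adjusted p = 0.0102). The adjusted p of NFKB2 in PC3 was 0.0629 without overexpression replicate 2, 0.0757 without replicate 3, 0.0578 with DESeq2 and 0.18 in 1 fit over both lines. In DU145 NFKB2 was read at 54.6, 58.8 and 60.1 normalised CPM in controls and at 37.1 and 44.04 with overexpression. There the groups lay clearly apart, with a log2 fold change of -0.50 (SE 0.0975, adjusted p = 0.00226), and it was -0.63 without overexpression replicate 3. After removal of a trend of all genes with GC content and length, it no longer passed in DU145 (-0.24, adjusted p = 0.11), while in PC3 it was -0.19 (adjusted p = 0.000203).

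RELA and RELB did not pass the test in either line with all libraries. RELA was read at 144 to 149 normalised CPM in PC3 controls and 149 to 155 with overexpression, and its log2 fold change was 0.05 (SE 0.0324, adjusted p = 0.292). In DU145 the overexpression libraries lay on either side of the controls, at 86.0 and 115 normalised CPM against 103 to 114 (log2 fold change -0.09, SE 0.116, adjusted p = 0.642). Without overexpression replicate 3 RELA was -0.31 and passed (adjusted p = 0.00717). RELB, which pairs mainly with the product of NFKB2 in the alternative pathway, was read at 11.98 to 14.8 normalised CPM in PC3 controls, 10.9 to 12.9 in PC3 overexpression, 7.14 to 9.39 in DU145 controls and at 5.80 and 6.87 in DU145 overexpression libraries. Its log2 fold changes were -0.14 (adjusted p = 0.244) and -0.38 (adjusted p = 0.131, quasi-likelihood test of edgeR). The DU145 value was -0.48 with a replicate block (adjusted p = 0.046) and -0.0087 after removal of the trend with GC content and length (adjusted p = 0.981).

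ICAM1 was read in PC3 at 43.1, 43.5 and 41.7 normalised CPM in controls and at 46.7, 51.3 and 48.5 with overexpression, without overlap, and its log2 fold change was 0.19 (SE 0.0498, adjusted p = 0.00175). In DU145, where its level was higher, the groups overlapped, at 147 to 159 normalised CPM in controls against 142 and 156 (log2 fold change -0.04, SE 0.0772, adjusted p = 0.753). IRAK2 was read at 13.3 to 15.2 normalised CPM in PC3 controls and 11.5 to 15.04 with overexpression, and in DU145 at 13.7 to 14.6 against 13.6 and 17.5. Its groups overlapped in both lines, with log2 fold changes of -0.16 (adjusted p = 0.172) and 0.14 (adjusted p = 0.507). In PC3 it was -0.27 and passed without overexpression replicate 1 (adjusted p = 0.0258).

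Counted over the 10 members, 2 were called lower and 0 higher in PC3, against 1.76% of the 13544 tested genes called lower and 3.61% called higher. The 2 are BIRC3 and TNFAIP3. At an adjusted p under 0.05 alone, 5 were lower (NFKB1, NFKB2, NFKBIA, TNFAIP3 and BIRC3) and 2 higher (NFKBIZ and ICAM1), against 18.5% and 18.8% of all genes. The groups did not overlap for 7 of the 10, against 46.1% of all genes, and the median log2 fold change of the members was -0.15, where that of all genes was -0.0016. In DU145, 1 member (TNFAIP3) was called higher and 0 lower, against 4.33% and 4.61% of the 13676 tested genes. At an adjusted p under 0.05 alone, 2 were higher (NFKBIA and TNFAIP3) and 1 lower (NFKB2), against 10.7% and 9.42%. The groups did not overlap for 5 members, near the 48.4% of all genes, and the members' median log2 fold change was 0.02.

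Whether the change with overexpression differed between the lines was tested directly, as an interaction over all 11 libraries. It differed for 4 of the 10 members, 3 of them higher in DU145 than in PC3 (TNFAIP3, BIRC3 and NFKBIA) and 1 lower (NFKB2). Of the 14952 genes tested, 10.4% passed on the higher side and 9.36% on the lower side. TNFAIP3 had a difference of log2 fold changes, DU145 minus PC3, of 1.58 (SE 0.199, adjusted p = 1.18e-05), and its changes were of opposite sign in the lines. BIRC3 had a difference of 1.08 (SE 0.131, adjusted p = 5.97e-06), which came with a decrease in PC3 and overlapping groups in DU145. NFKBIA, with opposite signs again, had a difference of 0.97 (SE 0.127, adjusted p = 3.97e-05). NFKB2 had a difference of -0.38 (SE 0.0967, adjusted p = 0.00822, all by the quasi-likelihood test of edgeR), with lower values in both lines. This difference of NFKB2 did not hold after removal of a trend with GC content and length, where it was -0.0396 (adjusted p = 0.858), while TNFAIP3 (1.62), BIRC3 (0.956) and NFKBIA (1.09) still passed.

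All 4 passed in each fit that left out 1 library. Over those fits the difference lay between 1.28 and 1.80 for TNFAIP3, between 0.99 and 1.14 for BIRC3, between 0.77 and 1.12 for NFKBIA and between -0.52 and -0.27 for NFKB2. ICAM1 missed the threshold, with a difference of -0.24 and an adjusted p of 0.0547, and passed without DU145 control replicate 2 (adjusted p = 0.0356) or overexpression replicate 3 (adjusted p = 0.00231). For NFKB1, RELA, RELB, NFKBIZ and IRAK2 the differences were between -0.24 and 0.30 and did not pass. RELA and NFKBIZ passed without DU145 overexpression replicate 3, at -0.38 and -0.51, and IRAK2 passed without replicate 2, at 0.45. The ST6GAL1 level reached also differed between the lines, at a mean of 32.5 normalised CPM in PC3 and 323 in DU145 overexpression cells, and its part in these differences was not tested.

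**Figure D4:**
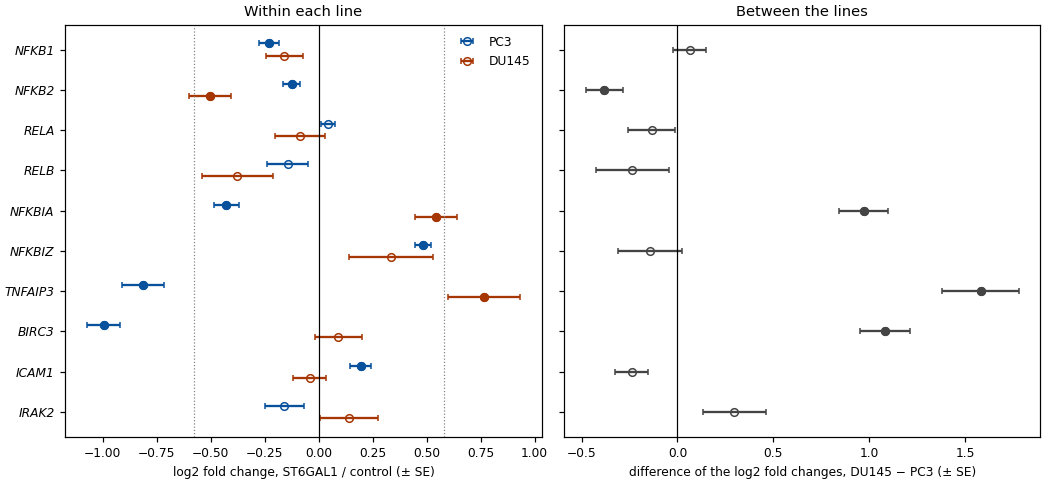
The left panel plots the log2 fold change of each member with ST6GAL1 overexpression in PC3 (blue) and DU145 (brown), and the right panel the difference between them, DU145 minus PC3, with bars for 1 standard error, filled points for an adjusted p under 0.05 and dotted lines at the size threshold of 0.58. TNFAIP3 and NFKBIA lie on opposite sides of 0 in the lines, BIRC3 is apart from 0 in PC3 alone, and open points mark the members that did not pass.

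Genes next to the members on their chromosomes were compared as a description. For each member, the 50 nearest tested genes were taken, 25 on each side. For BIRC3 in PC3 their starts ran from 93735110 to 110174922 on chromosome 11. A median over such a span does not describe a smaller region, and a regional cause was not tested. In PC3 the medians of these neighbours lay between -0.08 (NFKBIZ) and 0.05 (IRAK2) on the log2 scale, against -0.996 for BIRC3 and -0.81 for TNFAIP3 themselves. In DU145 the neighbours of TNFAIP3 had a median of 0.04. Those of BIRC3 had a median of 0.16, with 37 of 50 higher, beside 0.09 for BIRC3 itself. Those of NFKBIA had a median of 0.14, with 39 of 50 higher, and those of NFKB2 -0.04, while the members themselves stood at 0.54 and -0.50. ICAM1 and RELA had neighbours with medians of -0.22 and -0.18 in DU145, and their own log2 fold changes were -0.04 and -0.09.

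Genes whose level across the 11 libraries was most like that of each member were found by Pearson's correlation of log2 normalised CPM among 13410 genes. The gene most alike was SLC4A11 for NFKBIZ (r = 0.999), CFLAR for ICAM1 (0.999), ARRDC1 for RELA (0.995), PLEKHO1 for NFKB2 (0.994) and NOLC1 for NFKB1 (0.989). It was SLC3A2 for NFKBIA (0.987), COX6A1 for RELB (0.969), UBASH3B for BIRC3 (0.946), KLF7 for TNFAIP3 (0.919) and IQCH-AS1 for IRAK2 (0.827). These values describe 11 libraries that share 2 lines, so that the difference between the lines alone gives high values.

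Other genes of the pathway were then counted by role. Beside these counts, 1.76% of all tested genes were called lower and 3.61% higher in PC3. In DU145 the shares were 4.61% lower and 4.33% higher. Of the 5 other subunit and IkB genes (REL, NFKBIB, NFKBIE, NFKBID and BCL3), 0 were called in either line. Their median log2 fold change was -0.08 in PC3 and -0.11 in DU145. REL, the remaining transactivating subunit, had log2 fold changes of -0.07 (adjusted p = 0.594) in PC3 and 0.0030 (adjusted p = 0.988) in DU145. NFKBIE, an IkB protein that like NFKBIA is an NF-kB target, had -0.35 in PC3 (adjusted p = 0.00167) and -0.34 in DU145 (adjusted p = 0.0853) and had the same sign in both lines. Of 11 genes of the IkB kinase complex and its activating kinases, 0 were called in PC3 and 1 in DU145, MAP3K8, a kinase that binds the NFKB1 precursor protein. MAP3K8 was read at 2.31, 3.05 and 3.81 normalised CPM in DU145 controls and at 5.74 and 5.41 with overexpression (log2 fold change 0.88, adjusted p = 0.00824). This call was lost without DU145 control replicate 1 (adjusted p = 0.066) or 2 (adjusted p = 0.0824). The kinase genes CHUK and IKBKB themselves had log2 fold changes between -0.15 and 0.08 in the 2 lines, none past the test.

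Of 15 adaptors and signal transducers, 0 were called in either line, with medians of -0.0044 in PC3 and -0.11 in DU145. BIRC2, the close relative of BIRC3 next to it on chromosome 11, was lower in PC3 (log2 fold change -0.27, adjusted p = 5.33e-07) and higher in DU145 (0.26, adjusted p = 0.0371). Its difference between the lines was 0.52 (adjusted p = 8.78e-05), of the same sign as the 1.08 of BIRC3. BIRC2 was named after its values were seen. Among 14 receptor genes, TLR4 and TLR2 were called lower of 11 tested in PC3, and TLR1 and TLR6 higher of 12 tested in DU145. TLR4, the receptor for bacterial lipopolysaccharide, was read at 24.2, 25.2 and 24.7 normalised CPM in PC3 controls and at 15.9, 14.6 and 16.5 with overexpression (log2 fold change -0.66, adjusted p = 7.1e-10), and had no counts in any DU145 library. TLR1, a partner of TLR2, was read in DU145 at 2.99 to 3.43 normalised CPM in controls and at 6.58 and 5.69 with overexpression (0.95, adjusted p = 0.00182), and TLR6 at 14.7 to 16.0 against 24.0 and 23.4 (0.63, adjusted p = 0.00115). Without DU145 control replicate 2, TLR6 was 0.57, and after removal of the trend with GC content and length 0.507, both no longer past the size threshold.

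Few ligand genes could be tested. Of 11 on the list, 4 were tested in PC3 with 2 called lower, and 3 in DU145 with 2 called higher. TNF, LTA and LTB, which lie together in the major histocompatibility complex region of chromosome 6, are listed at 0 in every library. So are TAP1 and HSPA1A of the same region, genes that many cells use, and HSPA1B and IER3 are at or near 0, so that a 0 there cannot be read as absent expression. IL1B, which signals through IRAK kinases, was read at 47.9, 68.0 and 52.6 normalised CPM in PC3 controls and at 27.1, 35.4 and 32.6 with overexpression. Its groups did not overlap, with a log2 fold change of -0.81 (adjusted p = 0.0349), but the call was lost without PC3 control replicate 3 (adjusted p = 0.0868) and without overexpression replicate 1, 2 or 3 (adjusted p = 0.0974, 0.0793 and 0.104). IL1B had no counts in any DU145 library. The other call in PC3 was IL33, at 2.66 ± 0.274 normalised CPM in controls and 1.62 ± 0.208 with overexpression (SD, n = 3 each). In DU145 they were IL18, read at 19.3, 18.2 and 19.2 normalised CPM in controls and at 31.5 and 29.1 with overexpression (0.69, adjusted p = 0.000354), and TNFSF13B, near the floor at 0.267 ± 0.124 normalised CPM in controls (SD, n = 3) and 2.51 in both overexpression libraries.

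Negative regulators other than the members included 1 call in each line, PDLIM2 in both, of 12 and 13 genes tested of 15. PDLIM2, a ubiquitin ligase for nuclear RELA, was read in PC3 at 24.4, 25.99 and 24.1 normalised CPM in controls and at 14.97, 15.9 and 13.9 with overexpression (log2 fold change -0.73, adjusted p = 8.91e-11). In DU145 it was read at 18.3, 19.0 and 20.7 in controls and at 6.25 and 10.9 with overexpression (-1.15, adjusted p = 0.00424). PDLIM2 was thus lower in both lines, and its difference between the lines did not pass (-0.42, adjusted p = 0.162).

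Of 30 other target genes, 20 were tested in each line. Over all tested genes, 1.76% were called lower and 3.61% higher in PC3, and 4.61% and 4.33% in DU145. In PC3, 6 were called lower (CXCL8, PLAU, BCL2A1, CXCL2, CXCL3 and CSF2) and 1 higher (PTGS2), with a median log2 fold change of -0.33. In DU145, 3 were called lower (CCND1, CD83 and CXCL2) and 0 higher, with a median of -0.06. CXCL8, a chemokine that attracts neutrophils, was read at 119.6, 120.6 and 113 normalised CPM in PC3 controls and at 45.9, 49.8 and 47.5 with overexpression, a log2 fold change of -1.30 (adjusted p = 8.22e-27). In DU145 its level was low, at 1.14 to 1.98 normalised CPM in controls and 2.77 and 2.40 with overexpression (0.75, adjusted p = 0.0687). The difference between the lines was 2.04 (SE 0.225, adjusted p = 2.04e-06), in the direction of TNFAIP3, BIRC3 and NFKBIA. The other target genes did not share 1 direction in this difference. Of 22 tested for it, 5 passed as higher in DU145 and 3 as lower, with a median of 0.09. Of all genes, 10.4% passed as higher and 9.36% as lower. CCND1 (-0.69) and CD83 (-0.48) were among the lower.

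PLAU, the urokinase gene, was read at 1053, 1059.9 and 1062 normalised CPM in PC3 controls and at 629, 643 and 641 with overexpression (log2 fold change -0.73, adjusted p = 8.22e-27), and BCL2A1, an anti-apoptotic gene, at 7.61, 7.40 and 8.28 against 3.81, 3.25 and 3.73 (-1.11, adjusted p = 6.98e-09). In DU145 neither passed, at -0.17 (adjusted p = 0.123) and -0.47 (adjusted p = 0.537). CXCL2 was lower in both lines, at -0.996 in PC3 (adjusted p = 7.17e-06) and -0.73 in DU145 (adjusted p = 0.0154), the latter lost without DU145 control replicate 2 (adjusted p = 0.1) and with DESeq2 (adjusted p = 0.0611). CCND1, the cyclin D1 gene, was read in DU145 at 152, 151 and 168 normalised CPM in controls and at 75.0 and 89.5 with overexpression (-0.92, adjusted p = 7.69e-06), and CD83, a surface protein of activated immune cells, at 12.2, 13.4 and 14.4 against 7.41 and 6.98 (-0.88, adjusted p = 0.000569). SOD2, an antioxidant enzyme gene often used as an NF-kB readout, had log2 fold changes of 0.04 in PC3 (adjusted p = 0.494) and 0.15 in DU145 (adjusted p = 0.225). TNFAIP2, another tumour necrosis factor-induced gene, had -0.18 (adjusted p = 0.0232) and 0.49 (adjusted p = 0.0128). SOD2 and TNFAIP2 were named after their values were seen.

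Immediate early and stress genes, which respond to handling and growth signals and not mainly to NF-kB, were counted beside these. Of 12, 9 were tested in each line, with 1 called higher (FOS) and 1 lower (ATF3) in PC3, and 2 lower (EGR1 and FOS) in DU145. EGR1 was read in DU145 at 54.8, 63.0 and 46.2 normalised CPM in controls and at 15.9 and 14.96 with overexpression (log2 fold change -1.82, adjusted p = 2.45e-06), and had 0 to 5 counts in each PC3 library. FOS was read in DU145 at 8.85, 14.4 and 7.70 normalised CPM in controls and at 3.61 and 4.47 with overexpression (-1.35, adjusted p = 0.0187), and without overexpression replicate 2 its adjusted p was 0.0628. In PC3 FOS had only 4 to 15 counts in controls and 18 to 37 with overexpression (1.35, adjusted p = 0.000927), and in 1 fit over both lines its adjusted p was 0.104. The part of these genes in the changes of the members was not tested.

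**Figure D5:**
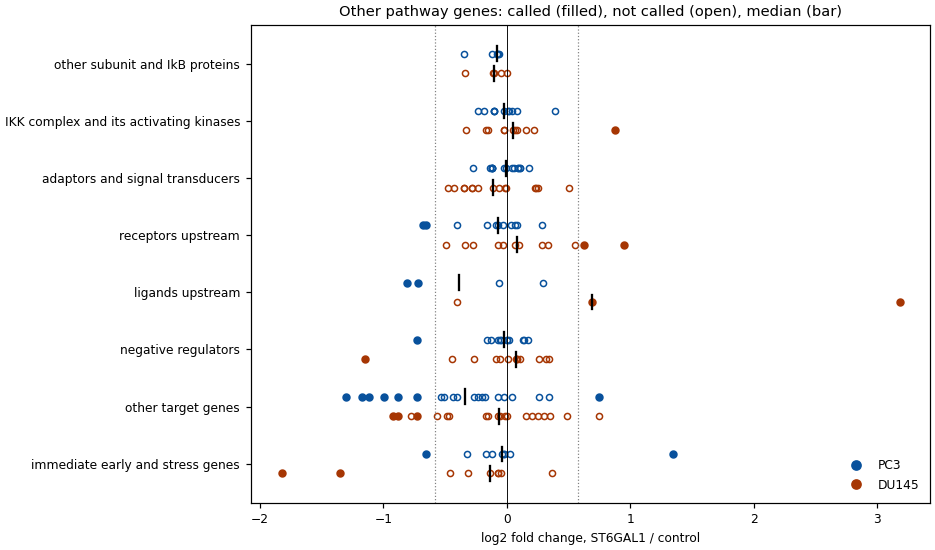
Each point is 1 tested gene of a role, with its log2 fold change with ST6GAL1 overexpression on the x axis, PC3 in blue and DU145 in brown, filled where called, and a black bar for the median of each role and line. The other target genes have the lowest PC3 median of the roles with more than 4 genes tested, -0.33, and the adaptors and other subunit and IkB genes have no filled points.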

How the data were processed

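RNA-Seq libraries of PC3 and DU145 cells were prepared with a TruSeq Stranded mRNA kit. In Galaxy, the authors removed adapters from the single reads (Cutadapt), aligned to hg38 (HISAT2) and quantified genes (featureCounts), and the deposited values are raw counts per gene by Entrez identifier, without normalisation. The annotation and the strand setting used for counting are not given in the sources used here, so that overlapping genes cannot be separated. Of the 28395 identifiers, 97.7% matched RefSeq. The submitters' processing notes name FastQC, featureCounts and limma. Totals were 13194485 to 18201359 counts per library, and intervals and floors (3 counts) cover counting error only.

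Log2 fold changes, standard errors and Benjamini-Hochberg adjusted p-values were computed here with edgeR 4.0.16 in R 4.3.3 (filterByExpr, TMM, robust quasi-likelihood test), in each line separately, for the interaction over all 11 libraries, and for the controls of both lines. Biological coefficients of variation were 0.0226 (PC3) and 0.0817 (DU145). Calls within a line and between controls required an adjusted p below 0.05 with a log2 fold change of more than 0.58 in size, and calls of the interaction the adjusted p. Normalised CPM used 1 set of TMM factors over all libraries, and lengths came from the canonical transcript. The scripts were tested on simulated data. No pair of replicates was within sampling noise, and DU145 overexpression has 2 libraries.

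The members and the lists were chosen with earlier results of these data known. By rule, the text names all 10 members, the gene most like each member (mean of at least 1 CPM), ST6GAL1, and of each list and line up to 3 called genes with the smallest adjusted p, non-overlapping groups and at least 5 normalised CPM as the mean of either group. Other called genes and other genes named as comparators were named after their values were seen. The lists are other subunit and IkB proteins, the IkB kinase complex, adaptors, receptors, ligands, negative regulators, other targets, and immediate early genes. Alternatives were limma-voom 3.58.1, DESeq2 1.42.0, RLE factors, no filter, at least 10 counts in every library, other thresholds, 1 fit over all libraries, removal of a GC and length trend (also with the p recomputed, chosen after seeing the data), a replicate block, and each library left out in turn. Promoter windows of 250 bases were from RefSeq on GRCh38.p14.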

Additional observations from a re-analysis of the deposited data

Results flagged for a closer look

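Overexpression changed 4 of the 10 members and 8 of the 15 list genes named by rule to a different extent in PC3 and DU145, by the interaction test of edgeR over all 11 libraries, in which 10.4% of all genes passed as higher in DU145 and 9.36% as lower. The list genes were named because they were called in a line, which favours such differences. Values are differences of log2 fold changes, DU145 minus PC3. Of the members, TNFAIP3 stood at 1.58 (adjusted p = 1.18e-05), BIRC3 at 1.08 (adjusted p = 5.97e-06), NFKBIA at 0.97 (adjusted p = 3.97e-05) and NFKB2 at -0.38 (adjusted p = 0.00822). After removal of a trend with GC content and length, NFKB2 was at -0.0396 (adjusted p = 0.858) and no longer passed. For TNFAIP3 and NFKBIA, all 3 PC3 overexpression libraries lay below all PC3 controls and both DU145 overexpression libraries above all DU145 controls. For NFKB2, all 5 overexpression libraries lay below the controls of their line.

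Among target genes, CXCL8 stood at 2.04 (adjusted p = 2.04e-06), PLAU at 0.56 (adjusted p = 2.88e-06), CCND1 at -0.69 (adjusted p = 1.14e-05) and CD83 at -0.48 (adjusted p = 0.0293). CD83 missed the threshold without PC3 control replicate 1 or 3, PC3 overexpression replicate 1, DU145 control replicate 2 or 3, or DU145 overexpression replicate 3, at adjusted p-values from 0.0525 to 0.0739, and with DESeq2 (adjusted p = 0.0849). Of the upstream genes, IL18 stood at 0.74 (adjusted p = 8.01e-06) and TLR6 at 0.65 (adjusted p = 0.0109). FOS stood at -2.70 (adjusted p = 0.0084) with signs opposite in the lines. EGR1 stood at -3.31 (adjusted p = 0.0355) on 0 to 5 counts in each PC3 library, and missed the threshold without PC3 control replicate 2 or 3, PC3 overexpression replicate 1 or 2, DU145 control replicate 1 or DU145 overexpression replicate 2, at adjusted p-values from 0.0521 to 0.177. The cause of these differences was not tested.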

How the results depend on the processing

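The 728 genes called in PC3 became 5056 with the adjusted p alone and 286 with an absolute log2 fold change over 1, and the 1222 in DU145 became 2747 and 596. The called members became 7 and 0 in PC3 (from 2) and 3 and 0 in DU145 (from 1), by the construction of these thresholds, and 3 in the controls (from 6) with the stricter size. Removal of a GC and length trend gave 2 called members in DU145, with NFKBIA at 0.61, and turned RELA (-0.0090 in PC3, 0.10 in DU145), BIRC3 (-0.0569) and ICAM1 (0.0833) in DU145, none of which had passed the test. With the p recomputed from the corrected values, an alternative chosen after seeing the data and also run for the difference between the lines, 2 members were called in DU145, NFKB2 was lost there (adjusted p = 0.11) and for the difference (-0.0396, adjusted p = 0.858), and the difference turned for RELA (0.135) and RELB (0.215). The cause was not tested. With each library left out in turn, genes called ranged from 670 to 798 in PC3, from 830 to 2072 in DU145 and from 2287 to 5161 for the difference between the lines, the highest of the latter 2 without DU145 overexpression replicate 3. Called members stayed at 2 in PC3 and ranged from 0 to 3 in DU145 (0 without control replicate 1 or 2, 3 without overexpression replicate 2) and from 4 to 7 for the difference (7 without overexpression replicate 3), and from 4 to 6 in the controls. Signs turned in DU145 for RELA (-0.312 to 0.0955) and ICAM1 (-0.109 to 0.0154), the upper values without overexpression replicate 2, and for NFKBIZ (-0.0089 to 0.589) and IRAK2 (-0.0521 to 0.296), the lower values without replicate 3. For the difference they turned for RELA (-0.376 to 0.0494) and NFKBIZ (-0.51 to 0.105), with the upper values without replicate 2, and in the controls for IRAK2 (-0.0703 to 0.027), above 0 without PC3 control replicate 1 or DU145 control replicate 2 (0.0196). With all libraries none of these values passed the test, but at the far ends RELA (DU145 and difference, without overexpression replicate 3) and NFKBIZ (DU145 without replicate 2, difference without replicate 3) did. With DESeq2, 583, 962 and 2484 genes were called, and with limma-voom 749, 1248 and 3163 (PC3, DU145, difference). A replicate block gave 740, 1517 and 3551 genes and 2, 1 and 4 members. Deviations of libraries with the same number correlated at 0.00392, 0.0716 and 0.0362 in PC3 and at 0.132 and 0.37 in DU145. Those with different numbers correlated at -0.0564 to 0.0216 in PC3 and at -0.370 to 0.2945 in DU145. With 2 DU145 overexpression libraries the deviations mirror each other, so that these values cannot decide on pairing. The numbers were not taken as pairing the samples in the main fits. With 2 DU145 overexpression libraries that stood apart, changes of low genes in DU145 are the least precise.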
